A study of Mus musculus with 18 samples.

Results

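The genes that encode the T cell antigen receptor were followed in whole lacrimal glands (LGs), the glands that secrete tear fluid. The set holds 174 of the 54232 genes of the count table. They are the variable (V) and constant (C) region genes whose symbols begin with Tra, Trb, Trd or Trg, and alpha V genes that the delta locus also uses (the dv names). The set comprised 1 alpha constant gene (Trac), 118 alpha variable genes, 10 alpha/delta variable genes, 2 beta constant genes (Trbc1 and Trbc2), 35 beta variable genes, 1 delta constant gene (Trdc), 6 delta variable genes and 1 gamma variable gene (Trgv2). Most gamma genes carry the older prefix Tcrg and fall outside that rule, so 4 gamma constant and 6 gamma variable genes of that name were read beside the set, as were 84 joining and diversity genes.

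RNA was sequenced as paired reads, after removal of ribosomal RNA, from 1 LG of each of 18 males, 3 in each of 6 groups. BALB/cJ mice (BALB/c) of 2, 4 and 6 months (2M, 4M and 6M) were the controls. NOD.B10Sn-H2b/J mice (NOD.H-2b) of the same ages carry the H2b haplotype of the major histocompatibility complex on the NOD background, do not become diabetic, and develop spontaneous LG inflammation as a model of Sjögren's disease. No mouse received a treatment, and the strains differ in the H2 haplotype and in the rest of the background at once, so the parts of haplotype and background cannot be told apart.

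An alpha-beta T cell joins an alpha chain with a beta chain, and a gamma-delta T cell joins a gamma chain with a delta chain. Each chain is built from a V gene, joined during thymic development to a J segment and spliced to a C gene. Beta and delta chains also take D segments between V and J. A C gene therefore reports how much of a chain's RNA is present, while the V genes report which receptors make it up. In mucosal and glandular tissues gamma-delta T cells are often resident cells with few V genes in use, while alpha-beta T cells that enter an inflamed gland use many. Transcription of Trdc is also known in natural killer (NK) cells and other innate lymphocytes, which make no delta chain.

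Which receptor gene a read names depends on its sequence, so the stretches on which the results rest are shown here in the reference (GRCm38, GENCODE M21 transcripts), 5′ to 3′ on the coding strand. The first group holds the last 60 bases of the coding segment of the V genes that lead or differ below. In capitals are the in-frame cysteine codons, of which the conserved one opens the third complementarity-determining region (CDR3), the loop that touches the antigen. All 136 V genes of the set that are not pseudogenes hold such a codon in their last 60 bases.
Trbv13-1 (chr6:41116409-41116468, +): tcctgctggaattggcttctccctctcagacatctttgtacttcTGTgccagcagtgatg
Trbv13-2 (chr6:41121773-41121832, +): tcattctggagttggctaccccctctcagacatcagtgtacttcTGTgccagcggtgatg
Trbv13-3 (chr6:41130526-41130585, +): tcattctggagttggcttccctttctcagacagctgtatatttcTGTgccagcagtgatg
Trbv3 (chr6:41048769-41048828, +): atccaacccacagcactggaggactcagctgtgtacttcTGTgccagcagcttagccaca
Trbv12-1 (chr6:41114008-41114067, +): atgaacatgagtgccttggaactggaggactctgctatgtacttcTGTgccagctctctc
Trbv12-2 (chr6:41119305-41119364, +): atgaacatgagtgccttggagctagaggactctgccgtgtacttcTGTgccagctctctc
Trbv15 (chr6:41141599-41141658, +): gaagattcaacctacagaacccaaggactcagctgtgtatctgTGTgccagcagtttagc
Trbv16 (chr6:41152171-41152230, +): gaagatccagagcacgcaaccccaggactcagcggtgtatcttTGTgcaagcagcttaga
Trav13-2 (chr14:53635340-53635399, +): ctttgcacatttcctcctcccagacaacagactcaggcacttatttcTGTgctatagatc
Trdv4 (chr14:54075456-54075515, +): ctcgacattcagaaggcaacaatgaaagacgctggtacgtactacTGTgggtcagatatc
Tcrg-V6 (chr13:19190870-19190929, +): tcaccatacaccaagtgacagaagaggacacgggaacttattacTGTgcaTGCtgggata
Trgv2 (chr13:19336573-19336632, -): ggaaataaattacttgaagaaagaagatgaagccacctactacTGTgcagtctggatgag

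The beta constant genes are near copies, identical at 95.6% of 518 coding bases, and their first coding exon differs at 1 of 375 bases. Coding exon 3 of each is shown because most of the bases that tell them apart lie there, with the 15 differing bases of 107 in capitals.
Trbc1 (chr6:41539229-41539335, +): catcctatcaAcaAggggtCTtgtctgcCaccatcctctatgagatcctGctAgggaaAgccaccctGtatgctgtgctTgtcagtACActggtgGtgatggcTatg
Trbc2 (chr6:41547772-41547878, +): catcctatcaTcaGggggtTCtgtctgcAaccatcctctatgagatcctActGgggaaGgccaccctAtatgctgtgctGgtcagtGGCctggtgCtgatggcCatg
Of all windows of 75 bases, the read length, 65.4% in Trbc1 and 62.3% in Trbc2 occurred in no other gene's transcript, so counts of the pair are uncertain singly. The share was 100% in Trac and 99.2% in Trdc. All windows were unique in 32 of 35 beta variable genes, including every one named here, but in only 16 of 118 alpha variable genes (median 45.7%), where duplicated copies share reads. How reads with several matches were counted is not given in the sources used here. The windows were taken from the reference only, and differences of either strain from it were not examined.

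Each mouse had between 49480781 and 103936830 counts over all genes. The receptor set took 10 to 191 of these in a BALB/c mouse and 185 to 2817 in a NOD.H-2b mouse, or 0.158 to 2.84 and 3.25 to 47.1 CPM (counts per 1000000 counts of the library). Of the 174 genes, 114 had a count in any mouse, 35 of them in a BALB/c LG and 112 in a NOD.H-2b LG, and 60 had none. One BALB/c library, 4M replicate 3, held those 191 counts, where no other BALB/c mouse had more than 70, and the values that it moved most are given with and without it, a choice made after the data were seen. In these whole glands fewer cells of a type and less RNA per cell cannot be told apart.

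Trac, the only constant gene of the alpha chain (chr14:54220521-54224206, +), had 0, 4 and 2 counts in the 2M BALB/c LGs, 11, 1 and 40 at 4M, and 12, 11 and 6 at 6M. In NOD.H-2b it had 60, 225 and 117 counts at 2M, 784, 463 and 334 at 4M, and 879, 441 and 575 at 6M. Every NOD.H-2b mouse therefore lay above every BALB/c mouse, and the lowest NOD.H-2b library was a 2M mouse. In CPM after TMM scaling, Trac averaged 0.0357 ± 0.0359, 0.273 ± 0.294 and 0.168 ± 0.0579 (SD, n = 3 each) in BALB/c at 2M, 4M and 6M, and 2.08 ± 1.24, 8.57 ± 2.86 and 9.75 ± 1.91 in NOD.H-2b. Without BALB/c 4M replicate 3, which held the 40 counts, the 4M BALB/c mean was 0.112 (n = 2).

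The beta constant genes followed the same pattern. Trbc1 had 0, 3 and 6 counts in BALB/c at 2M, 14, 7 and 52 at 4M and 7, 6 and 8 at 6M, against 49, 118 and 93, then 453, 240 and 181, then 416, 209 and 320 in NOD.H-2b. Trbc2 had 5, 1 and 1 counts, then 5, 5 and 39, then 24, 2 and 1 in BALB/c, against 29, 187 and 103, then 647, 371 and 312, then 598, 376 and 515 in NOD.H-2b. The strains did not overlap for Trbc1 in CPM, while for Trbc2 the NOD.H-2b 2M mouse with 29 counts lay below the BALB/c 4M mouse with 39. Leaving out that BALB/c mouse moved the 4M means of its strain from 0.392 to 0.2 CPM for Trbc1 and from 0.258 to 0.0969 CPM for Trbc2.

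Trdc, the only constant gene of the delta chain (chr14:54142851-54148868, +), was detected in all 18 mice. It had 1 count in each 2M BALB/c LG, 15, 8 and 15 at 4M, and 16, 19 and 5 at 6M. The NOD.H-2b LGs held 13, 100 and 68 counts at 2M, 134, 154 and 109 at 4M, and 153, 58 and 110 at 6M. Its mean CPM was 0.0182 ± 0.000776, 0.221 ± 0.057 and 0.231 ± 0.153 in BALB/c and 0.935 ± 0.665, 2.2 ± 0.176 and 1.65 ± 0.55 in NOD.H-2b (SD, n = 3). The NOD.H-2b mice of 4M and 6M were all above the BALB/c mice of those ages, and the mouse with 13 counts at 2M was again the lowest of its strain.

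**Figure D1:**
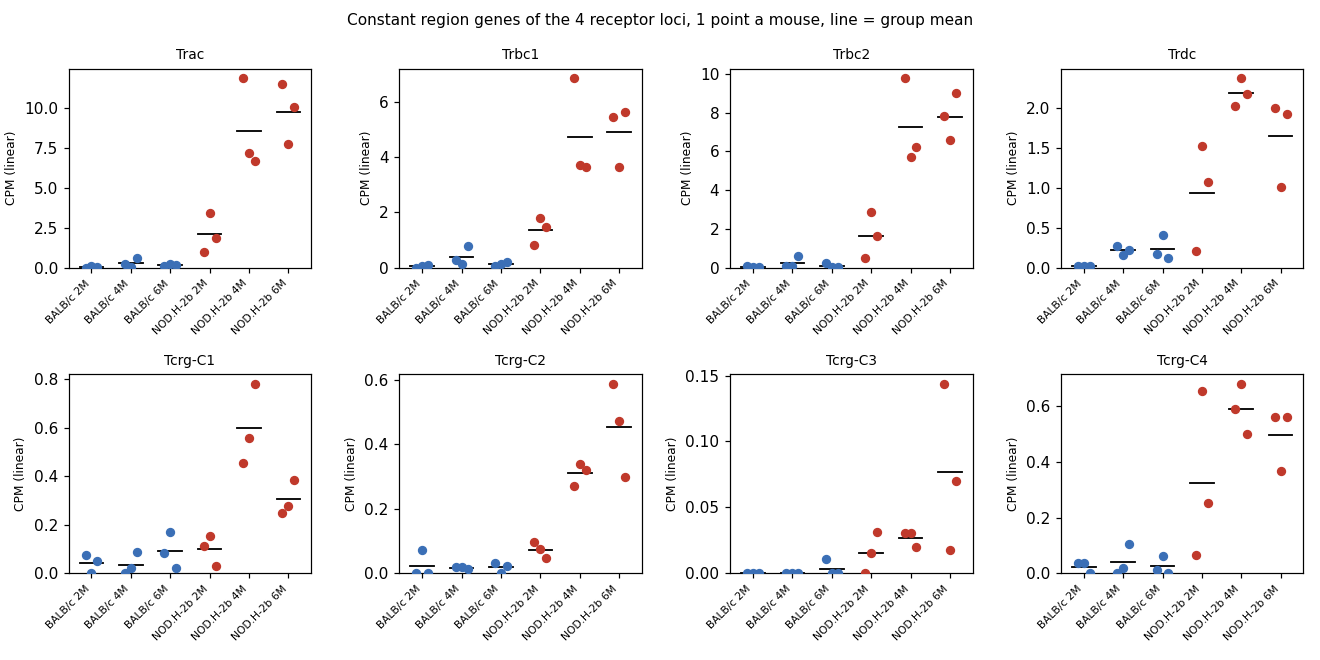
CPM (linear axis from 0) of Trac, Trbc1, Trbc2, Trdc and the gamma constant genes Tcrg-C1 to Tcrg-C4 in BALB/c (blue) and NOD.H-2b (red) LGs at 2M, 4M and 6M, with 1 point per mouse and a line at the group mean of 3 mice. Trac means were 2.08, 8.57 and 9.75 CPM in NOD.H-2b and at most 0.273 in BALB/c, while Trdc means were 0.935, 2.2 and 1.65 against at most 0.231.

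Strains were compared at each age with edgeR's quasi-likelihood test on all genes, with a call at a Benjamini-Hochberg FDR under 0.05 and at least a 2-fold change. Differences from these fits are given below as log2 fold changes, of NOD.H-2b over BALB/c unless ages are compared, and ± after one is its standard error. Values called a ratio, a bound or written with -fold are on the linear scale. At 2M only the 4 constant genes had enough counts to be tested, and all 4 were higher in NOD.H-2b, where 12.0% of 17200 genes were called higher. Trac was higher by 5.81 ± 0.754 (adjusted p = 0.000504), Trbc1 by 4.63 ± 0.609 (adjusted p = 0.000196), Trbc2 by 5.25 ± 0.926 (adjusted p = 0.00365) and Trdc by 5.58 ± 0.926 (adjusted p = 0.00134). These folds rest on 3 to 9 BALB/c counts a gene, and a difference between the genes was not tested at that age.

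At 4M 15 of 15 tested members were higher in NOD.H-2b, where 15.6% of 17722 genes were. Trac was higher by 4.87 ± 0.732 (adjusted p = 0.00384) and Trdc by 3.30 ± 0.282 (adjusted p = 2.06e-05). Without BALB/c 4M replicate 3 Trac was higher by 6.19 ± 0.619 (adjusted p = 0.000603) and Trdc by 3.30 ± 0.345 (adjusted p = 9.37e-05). The median of the members tested was 4.87 over 15 members with that mouse and 6.19 over 23 without it, so the medians cover different sets. At 6M 16 of 16 were higher, where 18.8% of 17750 genes were, with Trac at 5.94 ± 0.256 (adjusted p = 1.86e-07) and Trdc at 2.89 ± 0.443 (adjusted p = 0.000377). No member was called lower at any age, where 3.76%, 4.72% and 6.03% of genes were at 2M, 4M and 6M. A member passes the filter on low counts through the NOD.H-2b mice, since in a fit of the 2M and 6M BALB/c mice alone no member passed it, so these counts of members describe the direction that the filter leaves and carry no support of their own.

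Averaged over the 3 ages in 1 fit of all 18 mice, 25 members were tested and 25 were higher in NOD.H-2b, where 17.6% of 19117 genes were. These were the 4 constant genes, 15 beta variable, 4 alpha variable genes, Trdv4 and Trgv2. Trac averaged 5.51 ± 0.414 (adjusted p = 3.39e-08), Trbc1 4.49 ± 0.351 (adjusted p = 1.55e-08), Trbc2 5.24 ± 0.477 (adjusted p = 2.93e-07) and Trdc 3.90 ± 0.359 (adjusted p = 2.67e-08). In 6 of the 25, namely Trac, Trbc1, Trbv12-1, Trbv15, Trbv26 and Trav5-4, all 9 NOD.H-2b mice lay above all 9 BALB/c mice in CPM, as did 11.2% of all 19117 genes.

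The delta constant gene was compared with the alpha constant gene within each mouse, as log2((Trdc count + 0.5)/(Trac count + 0.5)), which does not depend on library size. BALB/c mice had ratios of 1.58, -1.58 and -0.74 at 2M, 0.43, 2.50 and -1.39 at 4M, and 0.40, 0.76 and -0.24 at 6M. NOD.H-2b mice had -2.16, -1.17 and -0.78 at 2M, -2.54, -1.58 and -1.61 at 4M, and -2.52, -2.92 and -2.38 at 6M. The strains overlapped at 2M and did not at 6M, and at 4M BALB/c replicate 3, at -1.39, was the closest to the NOD.H-2b mice. All 9 NOD.H-2b values were below 0, while 5 of 9 BALB/c values were above it.

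Over 9 mice each, the mean ratio of BALB/c was 0.19 ± 1.34 (SD) and that of NOD.H-2b was -1.96 ± 0.714. The difference, averaged over ages, was -2.16 (two-sided exact permutation test of strain labels within ages, 8000 arrangements, p = 0.0025, where 0.00025 is the smallest p it can give). By age the differences were -1.12, -2.43 and -2.91 for 2M, 4M and 6M, and the change of this difference with age was not tested on this scale. The value at 2M turned on single mice and on the reference, at -0.21 without BALB/c 2M replicate 1, which had 1 Trdc count and no Trac count, at -0.73 without NOD.H-2b 2M replicate 1, at -1.79 without BALB/c 2M replicate 2, and at 0.04 against the summed beta constant genes. At 4M it was -1.44 without BALB/c replicate 2 and -1.25 against the beta constant genes, while at 6M it stayed between -3.19 and -2.68 over these settings. Without BALB/c 4M replicate 3 the difference was -2.47 (exact permutation p = 0.001). Averaged over ages, Trdc relative to Trac was therefore lower in the NOD.H-2b LGs, although its own level was higher there.

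NK markers moved with the strain as well, and since NK cells can transcribe Trdc their values belong beside this ratio. All 5 genes of the NK list (Ncr1, Klrb1c, Klrd1, Eomes and Klra8) were higher in NOD.H-2b on average over ages, by 3.23 for Ncr1 and 3.97 for Klrd1 on the log2 scale, where 17.6% of all genes were. In a fit of the 2M and 6M BALB/c mice alone 0 of the 5 passed the filter on low counts, so this count carries no support of its own. The summed level of the 5 genes was 0.0468 to 1.89 CPM over the BALB/c mice and 3.48 to 11.2 CPM over the NOD.H-2b mice. Klra8, an activating receptor of the Ly49 family, had no count in any BALB/c mouse and is part of that sum. It was higher by 9.27, while the other genes of the list lay between 3.17 (Klrb1c) and 4.32 (Eomes). Whether its absence in BALB/c has to do with NK cells at all was not tested. The part of NK cells in the Trdc values was not tested.

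Summed over members, alpha-beta genes reached 0.2, 1.2 and 0.442 CPM in BALB/c at 2M, 4M and 6M and 6.52 ± 3.88, 28.5 ± 9.68 and 30.5 ± 5.36 CPM in NOD.H-2b (SD, n = 3). The BALB/c value at 4M was 0.561 without replicate 3, which stood at 2.49 CPM. Gamma-delta members reached 0.0433, 0.27 and 0.271 CPM in BALB/c and 1.04 ± 0.707, 2.87 ± 0.261 and 2.1 ± 0.577 CPM in NOD.H-2b. Of all counts on either side, leaving out the dv genes that both can use, gamma-delta genes held 30.8%, 11.8% and 10.0% in the BALB/c mice at 2M, 28.1%, 35.7% and 11.2% at 4M, and 32.9%, 48.8% and 27.3% at 6M. In the NOD.H-2b mice they held 9.24%, 13.8% and 15.7% (2M), 6.08%, 11.7% and 11.6% (4M), and 6.57%, 5.57% and 6.92% (6M). On these genes the groups overlapped at 2M and 4M and were apart at 6M.

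The members leave out most gamma genes, and the share at the younger ages depended on which genes were counted. With the Tcrg genes and the joining and diversity genes added, it was 29.4 to 39.3% in BALB/c against 16.4 to 17.9% in NOD.H-2b at 2M, 16.0 to 31.8% against 7.13 to 13.7% at 4M, and 23.5 to 46.5% against 7.63 to 8.12% at 6M. The strains were then apart at each age, and the BALB/c mean at 2M went from 17.5 to 33.6%. On the constant genes alone (Trdc against Trac, Trbc1 and Trbc2) the BALB/c mean at 2M was 12.6%, under the 14.1% of NOD.H-2b, and at 6M the range was 25.0 to 50.0% against 5.35 to 7.48%.

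Pooled over mice the share of the members was 103 of 446 counts in BALB/c (23.1%, exact Clopper-Pearson 95% interval 19.3 to 27.3%) and 1124 of 13514 in NOD.H-2b (8.32%, 7.86 to 8.8%). These intervals cover counting error only. Without BALB/c 4M replicate 3 the BALB/c share was 82 of 258 (31.8%). At 6M it was 49 of 133 (36.8%, 28.6 to 45.6%) against 405 of 6279 (6.45%, 5.85 to 7.09%). The mean over the 9 BALB/c mice was 26.3 ± 13.1% (SD), against 9.68 ± 3.67% over the 9 NOD.H-2b mice.

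**Figure D2:**
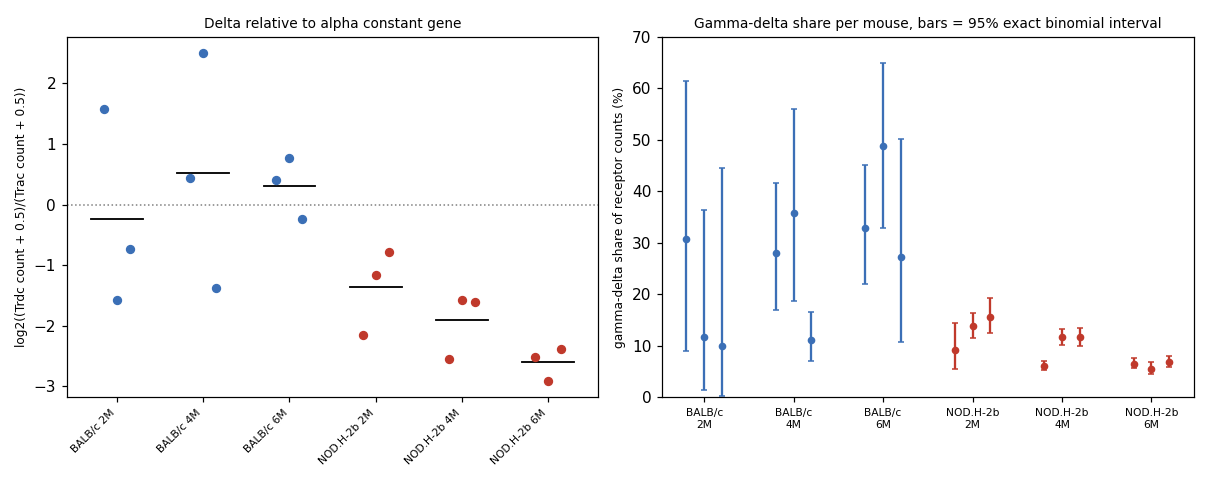
Left, log2((Trdc count + 0.5)/(Trac count + 0.5)) in each mouse, with a line at each group mean. Right, the share of gamma-delta counts among all alpha-beta and gamma-delta member counts of a mouse in percent, with exact 95% counting intervals, in BALB/c (blue) and NOD.H-2b (red). The 6M mice do not overlap in either panel, with shares of 27.3 to 48.8% in BALB/c and 5.57 to 6.92% in NOD.H-2b.

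Levels of different genes were compared per kilobase of exon, since Trdc has 3865 exon bases in the annotation and Trac 935. On that scale Trac averaged 7.27 ± 4.3 CPM per kb over the 9 NOD.H-2b mice, Trbc1 4.89 ± 2.74, Trbc2 8.05 ± 4.72 and Trdc 0.412 ± 0.182 (SD, n = 9). The gamma constant genes lay near Trdc, at 0.361 ± 0.256 for Tcrg-C1, 0.305 ± 0.199 for Tcrg-C2 and 0.477 ± 0.207 for Tcrg-C4, and Tcrg-C3 was lowest at 0.0614. Tcrg-C1 is identical to Tcrg-C2 at 94.6% and to Tcrg-C3 at 96.7% of aligned coding bases, and 82.4%, 90.8% and 78.0% of the 75-base windows of these 3 genes were unique, so their single counts are uncertain, as for the beta pair. All windows of Tcrg-C4 were unique. The SDs of Trdc, Tcrg-C1, Tcrg-C2 and Tcrg-C4 overlap, as do those of Trac and the beta genes, but they span all 3 ages. At 6M alone Trbc1 lay at 4.87 to 7.49 CPM per kb in NOD.H-2b. That was below Trac (8.24 to 12.3) and Trbc2 (9.49 to 13.0) in those mice. No difference between these genes was tested. In BALB/c the corresponding levels were 0.17 ± 0.196 for Trac (0.111 without 4M replicate 3) and 0.0406 ± 0.0342 for Trdc. Per kilobase the mean of Trac lay above that of Trdc in both strains.

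The gamma constant genes code for the chain that pairs with delta. Tcrg-C4, which is used with the V1 chain, had 2, 2 and 0 counts in BALB/c at 2M, 0, 1 and 7 at 4M and 1, 3 and 0 at 6M, and 4, 43 and 16, then 39, 44 and 25, then 43, 21 and 32 in NOD.H-2b. It was higher by 3.88 ± 0.516 on average over ages (edgeR, adjusted p = 2.15e-06). Tcrg-C2 was higher by 3.27 ± 0.455 (adjusted p = 3.61e-06) and Tcrg-C1, which serves the V4 to V7 chains, by 2.23 ± 0.45 (adjusted p = 0.000235). Tcrg-C3 had 1 BALB/c count against 24 in NOD.H-2b, a ratio of 22.1 (counting interval 3.61 to 910).

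Among gamma variable genes, Trgv2 had 11 counts in 3 of 9 BALB/c mice and 99 in 9 of 9 NOD.H-2b mice, and was higher by 3.08 ± 0.575 (edgeR, adjusted p = 0.000104). Its NOD.H-2b counts were 3, 5 and 6 at 2M, 12, 8 and 13 at 4M, and 15, 19 and 18 at 6M. Tcrg-V1, named after its values were seen, had 1 count in BALB/c and 88 over 9 of 9 NOD.H-2b mice (ratio 81.2, counting interval 14.2 to 3241). Tcrg-V4 had 4 counts in 1 BALB/c mouse and 57 in 8 of 9 NOD.H-2b mice. Tcrg-V3 and Tcrg-V7 had no count in any mouse, and Tcrg-V5, the chain of skin gamma-delta T cells, had 3 counts in each strain.

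Trdv4 (chr14:54074905-54075515, +) held most delta variable counts when the dv genes are left out. It codes for the delta V chain that joins the Tcrg-V6 chain in a tissue-resident population of gamma-delta T cells. Trdv4 had 8 counts over 7 of 9 BALB/c mice, never more than 2 in one. In NOD.H-2b it had 1, 5 and 0 counts at 2M, 12, 33 and 24 at 4M, and 6, 0 and 7 at 6M, so the 4M mice were the highest and 1 mouse at 6M had none. It was higher by 4.81 ± 0.821 at 4M (edgeR, adjusted p = 0.00113) and by 2.47 ± 0.691 on average (adjusted p = 0.00399).

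Tcrg-V6, looked up because of that pairing and named after its values were seen, was also highest at 4M in NOD.H-2b. It had 1, 1 and 0 counts at 2M, 8, 15 and 7 at 4M, and 0, 0 and 2 at 6M, against 7 in all over the BALB/c mice. Its mean CPM in NOD.H-2b, by age, was 0.0105, 0.164 ± 0.0591 and 0.0117 (SD, n = 3), beside 0.0308 ± 0.04, 0.391 ± 0.182 and 0.067 ± 0.0621 for Trdv4. The difference between 4M and 6M was not tested for either gene.

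Of 126 delta variable counts in NOD.H-2b, 88 were Trdv4 (69.8%). The dv genes, which delta chains can also use, are not among the 126. At 4M Trdv4 took 12 of 24, 33 of 35 (94.3%, exact interval 80.8 to 99.3%) and 24 of 28 (85.7%) in the 3 mice. At 6M it took 6 of 13, 0 of 5 and 7 of 14, and the 5 counts of the second mouse were all Trdv2-2. The other delta variable genes were sparse, with 15 counts in 4 NOD.H-2b mice for Trdv1, 13 in 6 for Trdv2-2 and 10 in 5 for Trdv5, against 1, 1 and 0 in BALB/c. Trdv5 lies on the other strand and overlaps Trdc by 207 bases, and without a stated strand setting their reads cannot be told apart. Trdv3 had 1 count, in BALB/c, and Trdv2-1 none.

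With the dv genes left out, delta variable genes gave fewer counts per constant count than the other loci. The dv genes, which both chains can use, held 115 counts in NOD.H-2b, beside 126 of the delta variable genes, and 9 in BALB/c. They enter neither the alpha nor the delta values here, and how many come from delta chains cannot be told. Per 100 constant counts, the NOD.H-2b mice together had 42.5 beta variable counts, 27.8 alpha variable counts and 14.0 delta variable counts. For delta the values were 7.69, 5.0 and 1.47 at 2M, 17.9, 22.7 and 25.7 at 4M, and 8.5, 8.62 and 12.7 at 6M, so the 4M mice were the highest. For beta they lay between 26.9 and 45.8, with the 2M mouse of fewest receptor counts the lowest. In BALB/c the pooled values were 20.4 for beta, 36.8 for alpha and 13.6 for delta, from 186, 87 and 81 constant counts, and 13.7, 44.7 and 13.6 without 4M replicate 3. Trdc also has the longest annotated exons of these constant genes, so the loci are not on 1 scale of length.

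The beta locus gave the fullest view of variable gene use, with 2216 counts in NOD.H-2b and 38 in BALB/c, 25 of these from the BALB/c 4M replicate 3. Shares below are of all beta variable counts of a mouse, with no test. Trbv13-2 led in NOD.H-2b at 13.2 ± 5.1% (SD, n = 9), from 7.89 to 25.5%. Trbv3 followed at 10.1 ± 5.9%, Trbv13-1 at 9.61 ± 6.68%, Trbv15 at 9.5 ± 11.0%, Trbv12-2 at 9.15 ± 5.17% and Trbv13-3 at 6.84 ± 3.98%. Neighbours in this order do not differ beyond their spread. The mean of Trbv15 rests on 1 mouse, 2M replicate 1, with 8 of 21 counts, and was 5.92 ± 2.69% over the other 8 mice, below Trbv13-3 (7.7%). Summed to the family, Trbv13 made up 29.7 ± 4.63%, between 24.5 and 36.8% in every NOD.H-2b mouse, while its 3 genes varied more against each other.

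In single genes the NOD.H-2b mice differed widely. The top gene at 2M was Trbv15 in the first mouse (8 of 21 counts, 38.1%, exact interval 18.1 to 61.6%), Trbv13-2 in the second (27 of 106, 25.5%, 17.5 to 34.9%) and Trbv1 in the third (16 of 76, 21.1%, 12.5 to 31.9%). At 4M it was Trbv13-2 (13.4%), Trbv12-2 (16.5%) and Trbv13-1 (11.9%), and at 6M Trbv13-3 (13.2%), Trbv3 (13.8%) and Trbv3 (16.7%). The leading gene thus took 21.1% or more in each 2M mouse and 16.7% or less in each older one. Drawn down to 20 beta variable counts, a mouse showed 8.71, 8.66 and 9.86 genes at 2M, 11.1, 10.4 and 10.7 at 4M, and 11.3, 10.7 and 10.9 at 6M. The 3 youngest mice had the fewest at equal depth, a difference that was not tested.

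**Figure D3:**
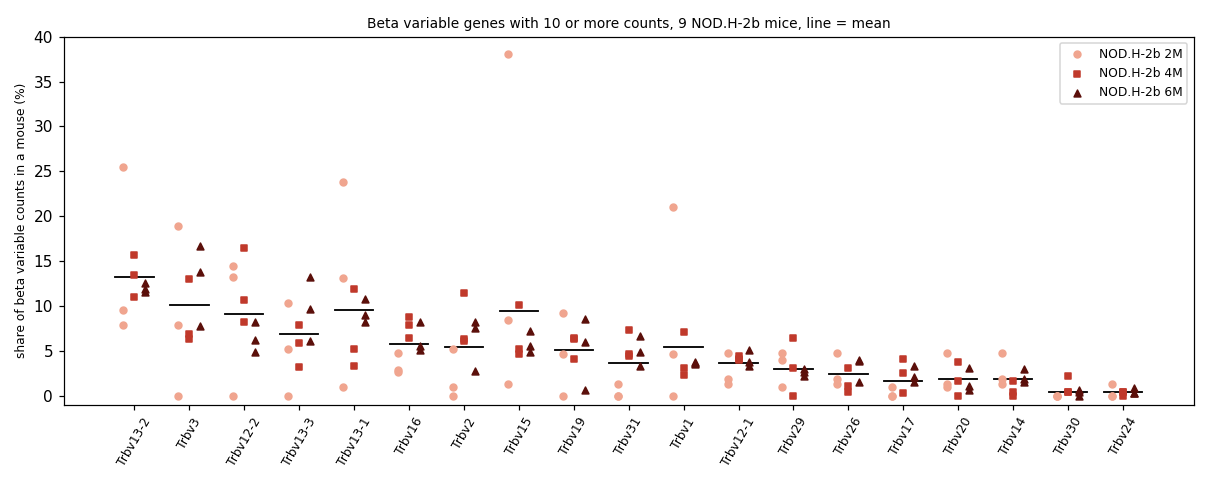
Share of each beta variable gene in all beta variable counts of a NOD.H-2b mouse (%), for genes with at least 10 counts over all 18 mice, with 1 point per mouse at 2M (circles), 4M (squares) and 6M (triangles) and a line at the mean of 9 mice. The means fall from 13.2% for Trbv13-2, and the highest single value is 38.1% for Trbv15 in a 2M mouse.

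More counts brought more variable genes into view. Beta variable genes with a count numbered 9, 17 and 17 in the NOD.H-2b mice at 2M, 21, 18 and 19 at 4M, and 22, 20 and 23 at 6M. Alpha variable genes, dv genes included, numbered 8, 29 and 10 at 2M, 53, 40 and 38 at 4M, and 49, 34 and 50 at 6M. Depth therefore limits how many genes a mouse can show, and the BALB/c mice are limited most.

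**Figure D4:**
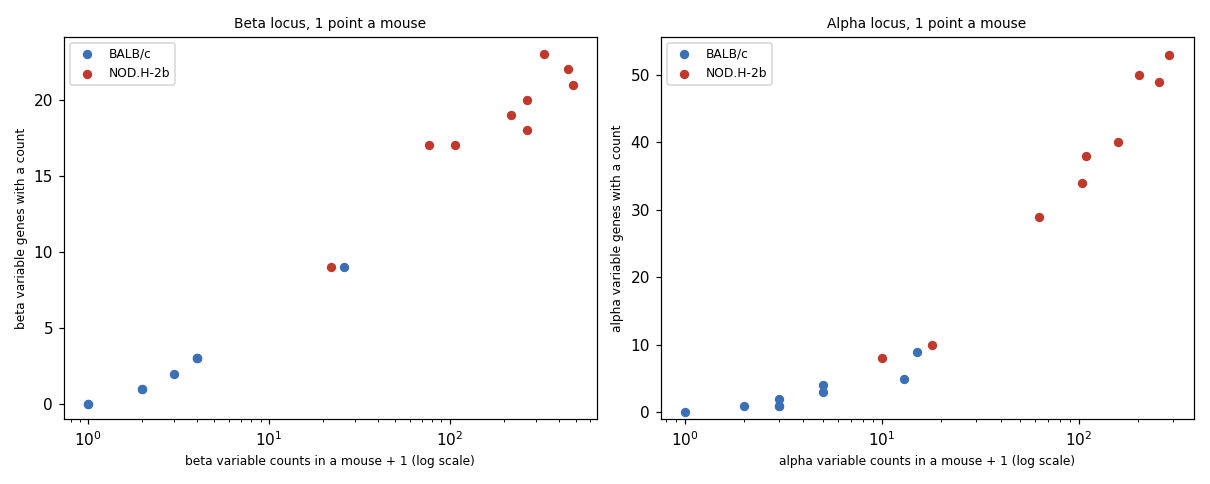
Number of beta (left) and alpha (right) variable genes with a count in a mouse against the mouse's beta or alpha variable counts plus 1 (log axis), for BALB/c (blue) and NOD.H-2b (red). The NOD.H-2b mice reach 23 beta and 53 alpha genes, and the BALB/c mice sit at the low end of both axes.

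In BALB/c the 38 beta variable counts were led by Trbv13-2 with 9 (23.7%, exact interval 11.4 to 40.2%), while Trbv15 had 0 of 38, which allows a share of up to 7.89%. The mean share in NOD.H-2b minus that over the 7 BALB/c mice with a count was -16.4 percentage points for Trbv13-2, -6.28 for Trbv12-2 and -4.70 for Trbv2. It was 9.50 points for Trbv15, 4.80 for Trbv3 and 4.28 for Trbv13-1. Without NOD.H-2b 2M replicate 1 it was 5.92 points for Trbv15 and 2.50 for Trbv13-1. All but 1 of those BALB/c mice had only 1 to 3 beta variable counts, and no difference of shares was tested.

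In level, most beta variable genes were set against few or no BALB/c counts. Trbv15 had 8, 9 and 1 counts in the 2M NOD.H-2b mice, 22, 14 and 22 at 4M, then 25, 13 and 24 at 6M, with none in BALB/c, and was at least 42.4-fold higher against a floor of 3 counts over the BALB/c mice. The bound was 31.0-fold for Trbv31, 30.1-fold for Trbv1, 26.4-fold for Trbv12-1 and 17.8-fold for Trbv26, all without a BALB/c count. Trbv3 was higher by a ratio of 114 (counting interval 31.2 to 946), Trbv13-3 by 163 (28.9 to 6483), Trbv13-1 by 79.8 (21.8 to 664) and Trbv12-2 by 63.3 (21.4 to 310). The ratios without BALB/c 4M replicate 3 were 198 for Trbv3, 142 for Trbv13-3, 139 for Trbv13-1 and 165 for Trbv12-2, each against 1 BALB/c count. All 9 genes were called higher in the averaged fit, as were all 15 tested beta variable genes and 17.6% of all genes. The 9 genes pass the filter on low counts through the NOD.H-2b mice, so this count carries no support of its own. Over the whole set, 48 members had no BALB/c count and more than 3 in NOD.H-2b, with bounds from 1.23-fold to 42.4-fold. How many of all genes meet the same rule was not counted, so the 48 cannot be read as particular to the set.

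Endogenous mammary tumour viruses encode superantigens that, shown by the class II molecule I-E, delete developing T cells that use certain beta V genes, and H2b mice make no I-E alpha chain. The 7 beta genes listed for such deletion (Trbv12-1, Trbv12-2, Trbv15, Trbv16, Trbv24, Trbv26 and Trbv31) were read as a list written by hand. They took 4 of 38 beta variable counts in BALB/c (10.5%, exact interval 2.94 to 24.8%) and 747 of 2216 in NOD.H-2b (33.7%, 31.7 to 35.7%), from 23.7 to 52.4% in single mice. Without BALB/c 4M replicate 3 the BALB/c share was 2 of 13 (15.4%, 1.92 to 45.4%), an interval that reaches the NOD.H-2b share. Of the 7, 6 were tested in the averaged fit and 6 were higher in NOD.H-2b, as were all 15 tested beta variable genes and 17.6% of all genes, so the count is not particular to the list. These genes, too, pass the filter on low counts through the NOD.H-2b mice. Trbv24 had too few counts for the test.

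The I-E genes themselves separated the strains. H2-Ea-ps, the I-E alpha gene under the name of its inactive allele, had 659, 740 and 630 counts in BALB/c at 2M, 805, 808 and 2123 at 4M, and 1212, 679 and 478 at 6M, and no count in any NOD.H-2b mouse. H2-Eb1, the I-E beta gene, was present in both strains and higher in NOD.H-2b by 2.72 (edgeR, adjusted p = 6.38e-08). The highest BALB/c value of H2-Ea-ps belonged to the 4M replicate 3, the mouse with the most receptor counts of its strain.

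The alpha locus was sparser for its number of genes. Trav13-2 led with 121 counts over all mice, 120 of them in NOD.H-2b, and a mean share of 12.1 ± 12.2% (SD, n = 9). Its NOD.H-2b counts were 0, 1 and 7 at 2M, 11, 18 and 14 at 4M and 26, 12 and 31 at 6M, and it was higher by a ratio of 111 (counting interval 19.5 to 4407). Trav5-4 (79 counts), Trav3-3 (68), Trav16n (52) and Trav8d-1 (52) had no BALB/c count and were at least 24.3, 20.9, 16.0 and 16.0-fold higher. By family, Trav7 took 16.7 ± 3.64% and Trav13 16.1 ± 11.4% of alpha variable counts in NOD.H-2b.

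Trav7-1, chosen after its values were seen, had as many counts in BALB/c as in NOD.H-2b. It had 1, 2 and 0 counts in BALB/c at 2M, 5, 2 and 4 at 4M and 2, 1 and 0 at 6M. In NOD.H-2b it had 0, 0 and 0, then 6, 0 and 1, then 1, 1 and 8. Both strains thus summed to 17 counts, a depth-scaled ratio of 0.922, where Trac was 41.1-fold higher. These ratios were 1.05 and 66.2 without BALB/c 4M replicate 3. Trav7-1 took 17 of 41 alpha variable counts in BALB/c (41.5%, exact interval 26.3 to 57.9%) and 17 of 1194 in NOD.H-2b (1.42%, 0.832 to 2.27%). All 263 of its windows of 75 bases were unique among transcripts of the reference, which does not show how reads of either strain map.

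From 2M to 6M the alpha and beta constant genes rose in the NOD.H-2b LGs. Trac was higher at 6M by 2.20 ± 0.465 (edgeR, adjusted p = 0.0171), Trbc1 by 1.83 ± 0.297 (adjusted p = 0.00307) and Trbc2 by 2.21 ± 0.604 (adjusted p = 0.0397). Of 18 members tested in that strain 12 were higher at 6M, where 10.9% of 18008 genes were. Of the 18, only the 4 constant genes reached the minimum of the filter (10 counts at the median library size) in all 3 2M mice. The other 14 passed through the 6M mice, 9 of the 12 among them, so that count describes a direction that the filter largely sets and carries no support of its own. Beta variable genes among the 12 included Trbv13-1 (2.54), Trbv13-3 (2.73), Trbv2 (3.55), Trbv12-1 (3.27) and Trbv16 (3.35), and Trgv2 was higher by 1.87 ± 0.487 (adjusted p = 0.0149). Trdc did not pass, at 0.79 ± 0.644 (adjusted p = 0.375). The call of Trac was lost without NOD.H-2b 2M replicate 3, 6M replicate 1 or 6M replicate 3, with 8 to 16 members called over the 6 fits that each left out 1 mouse.

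In BALB/c the corresponding comparison had no member to test, and 1.57% of 16579 genes were higher at 6M. The test of whether the strain difference itself changed from 2M to 6M (strain by age) called 0 of the 25 members in edgeR and 0 in DESeq2, with 1 and 4 members at an unadjusted p under 0.05, where 5.11% of all genes were called in either direction. In edgeR a member without a BALB/c count at 2M and 6M could not be called. Trbv15 and Trbv31, for example, had standard errors of 5376.8 and 7586.09. The 0 calls therefore do not show that the strain difference of such members was stable. The 1 member at an unadjusted p under 0.05 in edgeR was Trdc, whose strain difference fell by 2.67 ± 1.08 from 2M to 6M (adjusted p = 0.0997). Without NOD.H-2b 2M replicate 1, the mouse with 13 Trdc counts, the fall was 3.14 on the log2 scale and was called (adjusted p = 0.0191). No other fit that left out 1 mouse called it. Without BALB/c 2M replicate 2 or BALB/c 6M replicate 2 no member, Trdc included, had an unadjusted p under 0.05. The BALB/c side at 2M rests on 1 Trdc count in each mouse.

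The chains that carry the receptor's signal followed the constant genes. In the list of the receptor complex and proximal signaling 24 of 25 members were higher in NOD.H-2b on average over ages, with a median of 4.45 against -0.02 over all genes tested, of which 17.6% were called higher. In the fit of the 2M and 6M BALB/c mice alone 13 of the 25 passed the filter on low counts, so the filter sets part of that direction. Cd3d was higher by 6.05, Cd3e and Cd3g by 5.13 each and Cd247 by 4.24, all chains of the CD3 complex, while Plcg1, a phospholipase that many cell types express, was at -0.10 and did not pass. Cd3e had 8, 7 and 0 counts in BALB/c at 2M, 19, 8 and 75 at 4M and 25, 30 and 12 at 6M, against 83, 337 and 220, then 1431, 791 and 614, then 1471, 816 and 1040 in NOD.H-2b. Within NOD.H-2b, 24 of the 25 rose between 2M and 6M as well, where 10.9% of all genes did.

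All 12 coreceptor and costimulation genes were higher on average over ages (median 5.49), where 17.6% of all genes were, with Cd4, the coreceptor of helper T cells, at 5.48, Cd8a at 5.10 and Cd8b1, which marks conventional cytotoxic T cells, at 5.28. In the fit of the 2M and 6M BALB/c mice alone 2 of the 12 passed the filter on low counts. The count of 12 thus describes a direction that the filter largely sets and carries no support of its own. Ctla4, an inhibitory receptor of activated and regulatory T cells, was the highest of the list at 6.90. Dntt, the enzyme that adds bases at V(D)J joints in developing lymphocytes, had 3 counts in BALB/c and between 0 and 30 in a NOD.H-2b mouse, whereas Rag1 had none in any mouse. Among 7 tested genes known from gamma-delta T cells, 3 were higher (Ccr6 5.41, Il23r 1.95 and Cd163l1 1.79) and 2 lower (Sox13 -1.25 and Zbtb16 -1.09), where 5.19% of all genes were lower, and most of them are also expressed by other cells. In the 2M and 6M BALB/c mice alone 4 genes of this list passed the filter, without Ccr6, Il23r and Cd163l1.

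Other cell types of the gland differed too, and their part in the receptor values was not tested. All 7 B cell markers were higher in NOD.H-2b (Pax5 by 9.86), as were 7 of 7 macrophage markers (Adgre1 by 2.13), beside the same 17.6% of all genes, while 0 of 5 epithelial markers were called in either direction. In the 2M and 6M BALB/c mice alone 2 B cell, 7 macrophage and 5 epithelial markers passed the filter on low counts. The B cell count thus carries no support of its own.

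**Figure D5:**
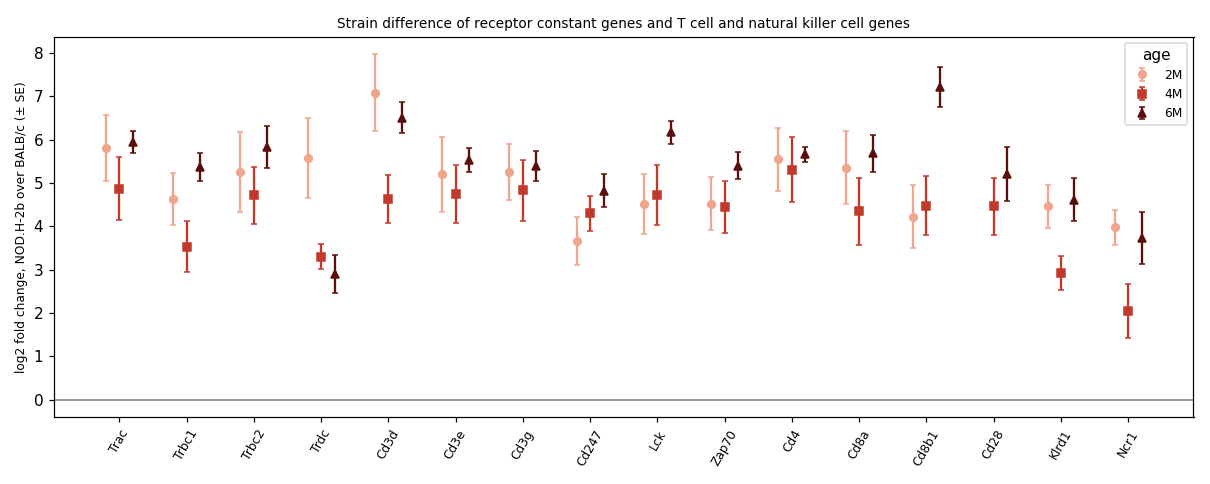
Log2 fold change of NOD.H-2b over BALB/c with its standard error at 2M (circles), 4M (squares) and 6M (triangles) for the constant genes, CD3 chains, proximal signaling genes, coreceptors and the NK markers Klrd1 and Ncr1, from edgeR fits of the 6 mice of each age. Trac lies at 5.81, 4.87 and 5.94, and Trdc at 5.58, 3.30 and 2.89, and Cd28 was not tested at 2M.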

How the data were processed

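Bulk RNA-seq of 18 LGs was analysed. By the paper's methods and the submitters' processing notes, the authors used cutadapt for trimming, STAR for alignment (GRCm38) and HTSeq for counting, and the deposited raw counts per gene are the values used. The other deposited table, log2 values that the authors made from those counts with DESeq2 size factors, served only to check that scale. Tool versions, the release of the annotation, the setting for strand and the handling of reads with several matches are not given in the sources used here. Totals were 49480781 to 103936830 counts per mouse, and the spread between mice, with a chi-square per gene of at least 16.8 between replicates, exceeded counting error.

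Tests were run in edgeR 4.0.16 (R 4.3.3, limma 3.58.1), with DESeq2 1.42.0 as the alternative. They used TMM, filterByExpr, the robust quasi-likelihood test and Benjamini-Hochberg adjustment over all genes tested, and calls at an FDR under 0.05 and 2-fold. Standard errors came from the fold change and the F statistic. Each age and each strain was fitted on its 6 mice, and the averaged and strain by age contrasts on all 18. On simulated counts with 200 genes changed 3-fold, edgeR recovered 98.5% at 2M, 100% at 4M, 99% at 6M and 84.5% for strain by age. The changed genes were drawn from genes with many counts, and all genes had the same dispersion. These rates therefore do not apply to the receptor variable genes, which had few counts. Ratios used 0.5 added counts, shares Clopper-Pearson intervals at 95%, and bounds a floor of 3 counts over the group. The mice are separate animals.

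The members and gene lists were chosen with earlier results of these data known. Named are all constant genes, delta and gamma variable genes in the fit of 18 mice, the 5 alpha and 5 beta variable genes with most counts, the 3 each way with the largest share difference among those with at least 100 counts, the superantigen list, the CD3 chains, Cd4, Cd8a, Cd8b1 and the top called gene of each other list. Others are said to be chosen after their values were seen or belong to a list given whole. Alternatives were DESeq2 size factors, no filter, at least 10 counts in every sample, DESeq2, the replicate number as a block, one fit of all mice, families, other added counts and references, and leaving out each mouse. GENCODE M21 gave coordinates, exon lengths and sequences.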

Additional observations from a re-analysis of the deposited data

Results flagged for a closer look

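Joining and diversity genes lie outside the set of variable and constant genes, and their summed counts were higher in NOD.H-2b than in the control mice. Alpha and beta joining and diversity genes held 5938 counts in the 9 NOD.H-2b mice and 156 in the 9 BALB/c mice, or 0.951 to 19.99 CPM against 0.0529 to 1.03 CPM per mouse. The strains overlapped, since NOD.H-2b 2M replicate 1, at 0.951 CPM, lay below BALB/c 4M replicate 3, at 1.03 CPM. Delta and gamma joining and diversity genes held 85 counts in NOD.H-2b and 7 in BALB/c. Neither difference was tested.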

How the results depend on the processing

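Without the filter on low counts 12 of 65 members were called higher in NOD.H-2b at 2M, 41 of 97 at 4M, 45 of 100 at 6M and 49 of 114 on average. Over all genes these calls were 2561 of 28659, 3290 of 29308, 4121 of 29828 and 4269 of 32780. From 2M to 6M it was 1 of 18 members in BALB/c and 22 of 104 in NOD.H-2b. Of all genes 441 of 28131 and 2115 of 29515 were higher in those 2 comparisons. One fit of all 18 mice gave 11 of 25 members at 2M, 25 of 25 at 4M and 24 of 25 at 6M, where 2434, 3133 and 3596 of 19117 genes were higher. With at least 10 counts in every sample 3 of 4 members were called from 2M to 6M in NOD.H-2b, where 1430 of 15942 genes were higher. Under that filter 6 of 7 receptor complex genes were called on average, where 1282 of 14255 genes were higher, and no member was left to test between strains. As a family Trbv13 took 29.7% where Trbv13-2 alone took 13.2%. The filter was run anew with each mouse left out, so the members tested changed as well, from 15 to 23 at 4M. Over all genes the fits without 1 mouse called 1919 to 2240 higher at 2M, 2575 to 2894 at 4M and 3113 to 3526 at 6M. They called 3363 to 3612 on average over ages and 1396 to 2230 from 2M to 6M in NOD.H-2b. Leaving out 1 mouse gave 4 to 5 members at 2M, 14 to 21 at 4M (21 without BALB/c 4M replicate 3), 17 to 21 at 6M, 21 to 26 on average, 8 to 16 for NOD.H-2b and 0 for BALB/c from 2M to 6M, 0 to 1 for strain by age, 24 receptor complex genes each time, -2.47 to -1.82 for the ratio of Trdc to Trac (exact permutation p 0.00025 to 0.006), 23.5 to 28.3% and 8.93 to 10.2% for the gamma-delta share in BALB/c and NOD.H-2b, and 11.7 to 13.9% for Trbv13-2. The ratio was -2.36 (exact permutation p = 0.00275) with 0.1 and -2.09 (p = 0.00125) with 1 added to each count, -1.34 (p = 0.01225) against both beta constant genes and -1.76 (p = 0.00425) over all gamma-delta against all alpha-beta members. The replicate numbers did not pair the mice, since 7 of 45 same-number pairs had a correlation over 0.1 and 5 of 18 mice correlated best with their own number. The replicate block called 8 members in place of 12 from 2M to 6M in NOD.H-2b, Trac among those lost, left the other counts of members as they were, and gave -2.16 for the ratio (exact permutation p = 0.0195). Of 1475 values of 27 named genes under alternatives 53 lost their call, 7 gained one and none reversed. Depth limits the BALB/c variable genes, with 38 beta and 41 alpha counts in all. The cause of these differences was not tested beyond what each alternative changes by its construction.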
